A study of Mus musculus with 15 samples.

Results

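At the higher dose of LCCL, RAW264.7 cells were sequenced after 6 h and after 24 h, and the comparison of these time points asked how the transcriptome moved on between an early and a late harvest. It used 6 of the 15 libraries, 3 per time point. Of 25639 gene symbols in the count table, the 12401 that passed a filter on low counts were tested. RAW264.7 is a mouse macrophage-like line, here of genotype WT. LCCL is a peptide that the series title describes as a potential drug with an LCCL core motif that differentiates M1 macrophages, the classically activated, inflammatory state. The other libraries used below are untreated cells, cells given 1 µg LCCL for 6 h and cells given 1 µg LCCL for 24 h, again 3 per group. Doses carry no volume in the labels, 1 batch is named for all libraries, and neither a vehicle group nor a harvest time of the untreated cells is labelled. All 5 groups are the same cell line, and nothing labels the replicates as separate cultures, so the p-values below speak of the scatter among libraries, and that scatter may be technical. Without untreated cells labelled with either time, longer exposure to LCCL and longer time in culture cannot be told apart here.

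Macrophages answer microbial and cytokine signals in waves. NF-kB first induces cytokines and its own inhibitors, interferon signalling then raises a set of antiviral genes, and later programmes adjust metabolism, growth and the lysosome. ATF4 is a transcription factor made when the cell senses a shortage of amino acids or other stress, and it turns on genes for amino acid synthesis and transport. TFEB and its relatives turn on genes of the lysosome. Id proteins are targets of the BMP and TGF-beta pathway and hold back differentiation factors.

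Library totals ran from 19085148 to 22434642 counts over the 15 libraries. On the scale used here, counts per 1e6 after TMM scaling (CPM), the floor of 3 counts was 0.139 to 0.153 CPM in the 6 libraries compared. Mitochondrial genes took 5.98% to 6.14% of counts at 6 h and 6.06% to 6.23% at 24 h, and the 10 most abundant genes took 7.40% to 7.52% and 8.11% to 8.45%. Macrophage markers were present throughout: Lyz2, Cd14, Csf1r and 6 more of a list of 10 were tested, and Mertk was near 0. Their summed level was 14734 to 14910 CPM at 6 h and 10935 to 12017 CPM at 24 h, with 4 markers higher and 5 lower. Of 7 dendritic cell markers 4 were tested, and the 1 that passed was the integrin gene Itgax, which rose by 1.10 on the log2 scale. It made up most of that list's summed level, 21.0 to 22.2 CPM at 6 h and 42.4 to 46.3 CPM at 24 h. The summed levels of T cell, B cell, neutrophil, fibroblast and epithelial markers were at most 1.23 CPM in any of the 6 libraries. Cd3e, Cd79b, Ly6g, Col1a1 and Epcam among them were at 0, while the neutrophil marker S100a8, with 46 counts at 6 h and 17 at 24 h, fell (-1.41, adjusted p = 0.0247). The part of these marker shifts in the results below was not tested. In bulk RNA, fewer cells of a kind and less RNA per cell cannot be told apart.

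The transcriptome at 24 h differed from that at 6 h over most of its width. By edgeR's quasi-likelihood test with Benjamini-Hochberg adjustment, 8579 of 12401 genes (69.2%) passed an adjusted p of 0.05. These were 4218 higher at 24 h (34.0%) and 4361 lower (35.2%). At least 2-fold changes were fewer, with 1084 genes higher (8.74%) and 608 lower (4.90%), and the median size of a called change was 0.523 on the log2 scale. The call held for 7308 genes (58.9%) whichever of the 6 libraries was left out, and for 8945 genes (72.1%) the 3 libraries of each time did not overlap. Scaling by library totals alone moved the median log2 fold change of all genes up by 0.101. It turned the split into 5132 higher and 3544 lower, 59.2% higher against 49.2%. Changes below are therefore relative to the bulk of the transcriptome, whose median was 0.01.

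Through the text, a change is the log2 fold change of 24 h over 6 h ± SE, levels are CPM, n = 3 libraries per group, and "rose" and "fell" are used of genes that passed. The members of each group were compared with the background of 34.0% higher and 35.2% lower. Members named from a list include the 4 with the smallest p whose call held without each library.

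The largest rises came from genes that were low or barely detected at 6 h. Trib3, a pseudokinase gene induced in ATF4 signalling, stood at 4.36, 5.46 and 4.20 CPM at 6 h and 178, 226 and 232 CPM at 24 h. All 24 h libraries were far above all 6 h libraries, a 45.5-fold difference (5.51 ± 0.24, adjusted p = 2.31e-09). Soat2, which encodes an enzyme that esterifies cholesterol for storage, stood at 4.63, 3.98 and 4.25 CPM at 6 h and 97.9, 101 and 96.1 CPM at 24 h, and the 24 h libraries lay close together. Its change was 4.52 ± 0.10 (adjusted p = 1.77e-20). Gdf15, a stress-induced cytokine of the TGF-beta superfamily, stood at 0.602, 0.613 and 0.628 CPM at 6 h and 14.1, 16.1 and 13.9 CPM at 24 h. Its groups were again widely apart, at 4.57 ± 0.18 (adjusted p = 4.28e-17). Angptl6, a secreted angiopoietin-like factor, stood at 2.22, 2.40 and 2.95 CPM at 6 h and 47.6, 71.9 and 64.0 CPM at 24 h, a change of 4.596 ± 0.28 (adjusted p = 2.7e-08).

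Cp, the gene of the copper-carrying ferroxidase ceruloplasmin, had 4 counts over the 6 h libraries and 471 over the 24 h libraries. It was at 0 in 6 h replicates 1 and 3, and reached 6.32, 9.43 and 7.38 CPM in the 24 h libraries (6.77 ± 0.48, adjusted p = 3.67e-11). Fbln5, an extracellular matrix protein gene, went from 0.278, 0.153 and 0.483 to 8.82, 9.83 and 9.03 CPM (4.88 ± 0.37, adjusted p = 4.23e-10). Extl1, a glycosyltransferase gene of heparan sulfate synthesis, went from 9 to 392 counts, a change of 5.40 ± 0.30. Tspan10, a tetraspanin gene, stood at 0.602, 0.766 and 0.483 CPM at 6 h and 10.0, 12.6 and 17.3 CPM at 24 h, and its 24 h libraries were spread more widely than its 6 h libraries (4.42 ± 0.26, adjusted p = 1.04e-13). The size of such changes rests on few counts at 6 h.

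Among the 12 largest rises some genes share exon sequence with a neighbour in GENCODE M21. Itgad, an integrin subunit gene, and Cox6a2, a cytochrome c oxidase subunit gene, overlap each other on opposite strands. Both rose, by 4.81 and 6.18 on the log2 scale. Zrsr1, a splicing factor gene, lies on the strand opposite its host Commd1 and rose by 5.06, from 0, 0.562 and 0.483 to 9.29, 13.3 and 12.04 CPM. Cp overlaps Hps3 on the other strand. The libraries were stranded per the labels, while the strand setting of the counting is not given in the sources used here, so reads of such partners may not have been separated. Gbp8, a guanylate-binding protein gene, rose by 4.44, from 1.16, 0.562 and 0.966 to 14.8, 24.6 and 19.96 CPM, and shares exons with Gbp9 on the same strand. Gbp9 was listed with 61, 60 and 48 counts at 6 h and 0 in each 24 h library, so this rise is uncertain.

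**Figure D1:**
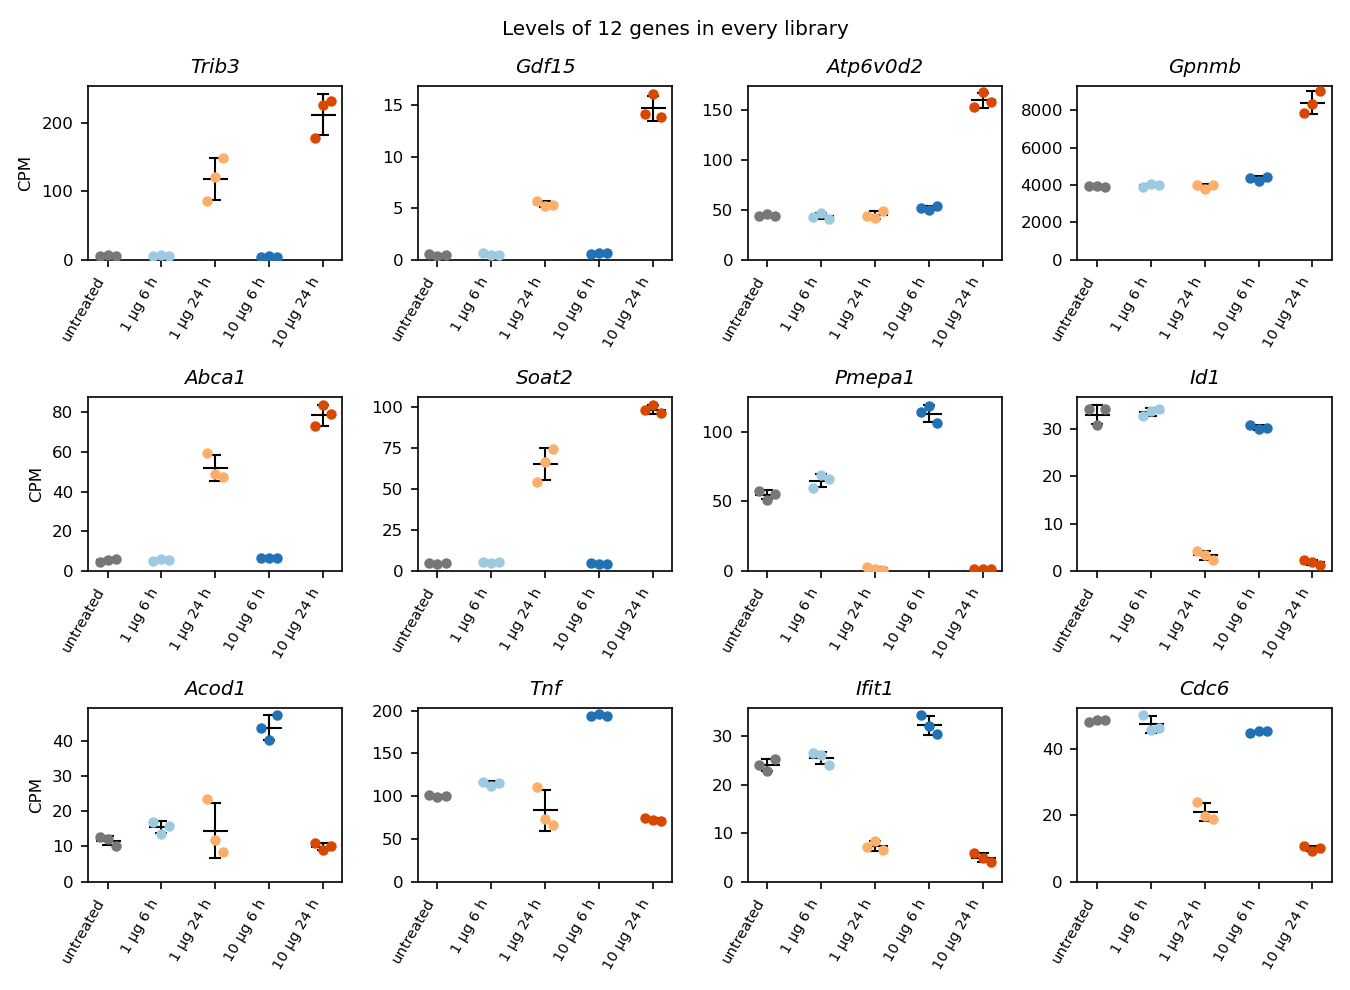
Levels (CPM, linear axes starting at 0) of 12 genes in every library of the 5 groups. Points are libraries, horizontal bars the mean and error bars the SD of 3 libraries. Trib3, Gdf15, Abca1 and Soat2 are high at 24 h at both doses, Atp6v0d2 and Gpnmb at 10 µg 24 h alone, and Acod1 and Tnf peak at 10 µg 6 h.

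The largest falls included genes of TGF-beta and BMP signalling. Pmepa1, a feedback inhibitor of TGF-beta signalling that this pathway induces, stood at 115, 118 and 106 CPM at 6 h and 1.53, 1.46 and 1.26 CPM at 24 h. Every 24 h library was below 2 CPM and the fall was 79.4-fold (-6.31 ± 0.16, adjusted p = 8.56e-16). Id1, an inhibitor of DNA binding that BMP signalling induces, stood at 30.9, 30.0 and 30.3 CPM at 6 h and 2.30, 1.77 and 1.31 CPM at 24 h, with no overlap between the times (-4.08 ± 0.14, adjusted p = 7.32e-17). Its relative Id3 went from 80.7, 77.7 and 76.1 to 8.24, 5.55 and 6.75 CPM (-3.51 ± 0.13, adjusted p = 1.8e-12).

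Of 16 TGF-beta and BMP response genes tested, 10 fell and 3 rose (5 under library totals), with a median of -0.88. The inhibitory Smad genes fell too, Smad6 by 7.03-fold (30.9, 36.2 and 34.2 to 6.23, 4.34 and 3.79 CPM, -2.81 ± 0.11) and Smad7 with a change of -2.08 ± 0.16 (adjusted p = 2.15e-11). Skil, a repressor of Smad complexes, changed by -1.54 ± 0.06 and Id2 by -1.50 ± 0.05. The receptor genes moved much less. Tgfbr2 and Bmpr2 rose, at 0.35 and 0.36, Tgfbr1 fell at -0.26, and Bmpr1a did not pass, at 0.03. The ligand gene Tgfb1 did not pass either, at -0.07 ± 0.06. The third gene that rose was Tgif1, a co-repressor gene, at 0.65 ± 0.05. At 1 µg the list's median over time was -0.74. For Id2 the later level depended on the dose in the other direction. It stood at 43.3 ± 0.953 CPM after 24 h at 10 µg and 21.0 ± 0.848 CPM at 1 µg, and its fall over time was smaller at 10 µg than at 1 µg (interaction 1.19 ± 0.08, adjusted p = 1.96e-10).

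Other large falls belonged to unrelated classes. Gadd45g, a growth arrest and DNA damage-inducible gene, stood at 10.3, 12.3 and 11.7 CPM at 6 h and 1.01, 1.06 and 0.534 CPM at 24 h (-3.71 ± 0.19, adjusted p = 8.73e-15). Rgs16, which shortens signalling through G proteins, stood at 16.3, 15.1 and 14.8 CPM at 6 h and 1.53, 1.01 and 1.75 CPM at 24 h, with all 24 h libraries below all 6 h libraries (-3.42 ± 0.20, adjusted p = 6.08e-13). Olfml3, a secreted olfactomedin-like protein gene, changed by -4.38 ± 0.20, and Tmem26, a transmembrane protein gene, by -3.59 ± 0.30. Itsn1, a scaffold of endocytosis, stood at 4.73, 11.3 and 15.3 CPM at 6 h and 0.0958, 0.454 and 0 CPM at 24 h. Its 6 h libraries differed among themselves more than 3-fold while the 24 h libraries were all under 1 CPM (-5.81 ± 0.69, adjusted p = 1.57e-05).

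Exosc6, an RNA exosome subunit gene, had the most extreme fall on paper and is the least certain. It was listed with 573, 553 and 602 counts at 6 h and with 0 in all 24 h libraries, at 1 µg as well, which is at least 571-fold lower against a floor of 3 counts over the group. Its exons overlap those of Aars on the same strand, and Aars rose over the same interval. In the count table as a whole, 5 genes were at 0 in all 6 libraries taken at 24 h while holding at least 100 counts over the other 9, and they were picked out after their values were seen. Besides Exosc6 and Gbp9 these were Adora3 and Rbm12, each overlapping another gene on the same strand, and Nup43, which overlaps none. The reverse pattern held for 4 genes, Csrnp1, Lxn, Car6 and Ankrd45. Csrnp1 had 61, 46 and 60 counts at 10 µg 24 h and 0 in the 9 libraries that were not taken at 24 h. Nup43, Csrnp1, Car6 and Ankrd45 showed no overlap in GENCODE M21, so shared reads do not cover every case. Neither the assignment of shared reads nor the annotation and settings used for each library are given in the sources used here. A difference in counting between the 24 h libraries and the others was not tested, and it could not be told apart from time.

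The list with the highest median was the amino acid response driven by ATF4. Of 27 members tested, 24 rose, 1 fell and 18 rose at least 2-fold, with a median of 1.49. Sesn2, a leucine-sensing inhibitor of mTORC1, stood at 9.83, 10.2 and 9.56 CPM at 6 h and 72.8, 82.0 and 86.3 CPM at 24 h. The groups were widely separated, an 8.14-fold rise (3.03 ± 0.08, adjusted p = 2.74e-20). Chac1, which breaks down glutathione, stood at 5.70, 6.48 and 5.21 CPM at 6 h and 38.6, 39.2 and 43.4 CPM at 24 h (2.80 ± 0.10, adjusted p = 6.74e-18). Gpt2, a mitochondrial alanine aminotransferase, stood at 16.9, 18.2 and 20.7 CPM at 6 h and 66.1, 69.8 and 75.3 CPM at 24 h (1.92 ± 0.08, adjusted p = 2.51e-16).

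The rest of the ATF4 list covered its regulators and its metabolic targets. Atf4 itself changed by 1.22 ± 0.06 and its relative Atf5 by 2.25 ± 0.08. Among enzymes, the cystathionine lyase gene Cth changed by 3.59 ± 0.20, the asparagine synthetase gene Asns by 1.84 ± 0.09 and the serine synthesis gene Phgdh by 1.49 ± 0.07. The proline synthesis gene Pycr1 changed by 2.07 ± 0.17. The hormone gene Stc2 and the stress regulator Nupr1 changed by 3.32 ± 0.15 and 2.64 ± 0.13, and Ppp1r15a, whose product reverses eIF2-alpha phosphorylation, by 2.05 ± 0.09. The glutamine transporter gene Slc1a5 was the 1 member that fell, at -0.12 ± 0.05. That call was lost without 6 h replicate 2 or 3 or 24 h replicate 1 or 2 (adjusted p = 0.0524 to 0.102). The cystine transporter gene Slc7a11 and the transcription factor gene Cebpb did not pass, at -0.52 ± 0.23 and 0.14 ± 0.21.

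Aminoacyl-tRNA synthetase genes, several of which are ATF4 targets, split by member. Of 20 cytosolic members tested, 14 rose and 5 fell, with a median of 0.69. Aars, for alanine, stood at 187, 198 and 193 CPM at 6 h and 438, 442 and 488 CPM at 24 h (1.24 ± 0.07, adjusted p = 1.34e-12). Aars shares exons on the same strand with Exosc6, which was listed at 0 in every 24 h library. The part of read assignment in the rise of Aars was not tested. Cars, for cysteine, stood at 55.3, 61.7 and 58.2 CPM at 6 h and 122, 110.3 and 111 CPM at 24 h (0.97 ± 0.06, adjusted p = 8.13e-14), and Sars, for serine, showed the largest rise of the list at 1.63 ± 0.10. Rars and Lars rose by 0.89 and 0.84. The synthetases that fell were Farsa (-0.71 ± 0.06), Hars (-0.60 ± 0.06), Kars (-0.50 ± 0.05), Dars (-0.31 ± 0.06) and Vars (-0.17 ± 0.06). The call of Vars was lost without 24 h replicate 2 (adjusted p = 0.0662). Among the rises, that of Qars lost its call without 6 h replicate 1 or 24 h replicate 2 or 3 (adjusted p = 0.0663 to 0.122).

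Windows of 250 bases before the annotated start were read for the ATF4 list from RefSeq promoters of build GRCm38.p6, matched by symbol. The motif TGATGNAA, the core of the amino acid response element, was searched on both strands. It was found in 5 of 27 windows of 23 matched genes (18.5%), in 3.45% of all 32851 windows and in 2.15% of the 12251 windows of tested genes. Trib3, Gdf15, Cth, Stc2 and Sesn2 rose more than Chac1 and gave no window with a match. A missing window and a window without the motif were not told apart for them. Chac1 and Nupr1 are shown because both hold it and both rose more than 6-fold. The match is in capitals, with up to 50 bases on each side. The Chac1 stretch is chr2:119350999-119351106 on the plus strand, and the Nupr1 stretch is chr7:126625523-126625630 on the minus strand.
Chac1: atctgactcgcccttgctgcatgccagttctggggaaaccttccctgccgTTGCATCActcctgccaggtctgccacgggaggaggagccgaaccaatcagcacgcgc
Nupr1: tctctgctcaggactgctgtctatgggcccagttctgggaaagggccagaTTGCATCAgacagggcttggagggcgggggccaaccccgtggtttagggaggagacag
Each is written 5′ to 3′ in the direction of the gene, and the capitals are the reverse complement of the motif. A match describes the letters only.

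Lysosome and autophagy genes rose together, enzymes, membrane proteins and pump subunits among them. Of 40 lysosome genes tested, 33 rose and 1 fell, with a median of 0.55 against 0.01 for all genes. Gpnmb, a glycoprotein of lysosomes and melanosomes, was among the most abundant transcripts, at 4351, 4212 and 4444 CPM at 6 h and 7830.4, 8335 and 9026 CPM at 24 h. All 24 h libraries were well above all 6 h libraries (0.95 ± 0.05, adjusted p = 3.73e-14). Atp6v0d2, a subunit of the proton pump that acidifies lysosomes, stood at 52.0, 50.2 and 54.1 CPM at 6 h and 153, 168 and 158 CPM at 24 h (1.61 ± 0.06, adjusted p = 1.74e-17). Naglu, which digests heparan sulfate, stood at 91.2, 92.1 and 94.0 CPM at 6 h and 178, 194 and 206 CPM at 24 h (1.06 ± 0.06, adjusted p = 5.51e-14). Gla, the alpha-galactosidase gene, stood at 94.6, 94.0 and 95.0 CPM at 6 h and 151, 172 and 170.3 CPM at 24 h (0.80 ± 0.05, adjusted p = 3.25e-13).

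Among the other lysosomal genes, the hexosaminidase gene Hexa changed by 0.86 ± 0.06, and the cathepsin genes Ctsd, Ctsb and Ctsl by 0.71, 0.55 and 0.55. The calcium channel gene Mcoln1 changed by 0.79 ± 0.06 and the membrane protein gene Lamp2 by 0.59 ± 0.06. Pump subunits were mixed: Atp6v1d and Atp6v1c1 rose (0.65 and 0.61), while Atp6v1b2, Atp6v1e1 and Atp6v1h did not pass (0.01, -0.03 and -0.10). The lipase gene Lipa was the 1 member that fell, at -0.30 ± 0.05, and 3 members fell without 6 h replicate 2. Of the regulators, Tfeb stood at 0.22 ± 0.07, a call lost without 6 h replicate 1 or 24 h replicate 3 (adjusted p = 0.0727 and 0.0745), and Tfe3 did not pass at -0.10 ± 0.05.

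The lysosomal rise over time was larger at 10 µg than at 1 µg. At 1 µg, where 7533 of all genes passed (60.7%; 3756 or 30.3% higher, 3777 or 30.5% lower), 16 of the same 40 genes rose and 7 fell, with a median of 0.03. The dose-by-time interaction passed for 33 of 40 genes in the direction of a larger rise at 10 µg and for 0 in the other direction, against 7.58% and 11.0% of all genes (18.6% in either direction). Atp6v0d2 changed by 0.04 ± 0.06 at 1 µg, which did not pass (adjusted p = 0.559), and the interaction was 1.57 ± 0.09 (adjusted p = 7.69e-12). Gpnmb changed by -0.02 ± 0.05 at 1 µg (adjusted p = 0.747), with an interaction of 0.97 ± 0.07 (adjusted p = 3.73e-09). Naglu and Gla rose at both doses, and the interactions were 0.74 ± 0.09 and 0.58 ± 0.07 (adjusted p = 1.5e-06 and 3.92e-06).

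Of 23 autophagy genes, 18 rose and 1 fell, with a median of 0.53. The call of the 1 that fell, Gabarapl1 (-0.18 ± 0.06), was lost without 6 h replicate 1 or 24 h replicate 1 (adjusted p = 0.0962 and 0.136). Calcoco1, a receptor for autophagy of the endoplasmic reticulum, went from 12.9, 15.1 and 14.0 to 42.0, 49.1 and 49.7 CPM (1.75 ± 0.08, adjusted p = 8.32e-16). The cargo receptor genes Optn, Sqstm1 and Nbr1 changed by 1.55 ± 0.23, 0.81 ± 0.06 and 0.79 ± 0.05. Of the core machinery, the initiating kinase gene Ulk1 changed by 0.94 ± 0.07 and the conjugation factor gene Atg12 by 0.79 ± 0.05. Map1lc3a and Map1lc3b, which encode the LC3 proteins of the autophagosome membrane, changed by 1.63 ± 0.17 and 0.70 ± 0.07. Becn1, Atg4b, Atg16l1 and Gabarapl2 did not pass.

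The promoter windows of the lysosome list were searched for TCACGTG, the core of the element bound by TFEB, on both strands. It stood in 10 of 36 windows of 30 matched genes (27.8%), in 3.13% of all windows and in 4.79% of the windows of tested genes. Naglu and Gla are shown because they hold it and are among the 4 lysosome genes with the smallest p. Atp6v0d2 and Gpnmb, the rest of these 4, gave no window with a match. A missing window and a window without the motif were not told apart for them. The Naglu stretch is chr11:101069970-101070076 on the plus strand, and the Gla stretch is chrX:134601144-134601250 on the minus strand, both of build GRCm38.p6.
Naglu: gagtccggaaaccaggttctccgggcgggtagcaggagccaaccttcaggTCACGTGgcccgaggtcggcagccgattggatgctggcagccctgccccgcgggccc
Gla: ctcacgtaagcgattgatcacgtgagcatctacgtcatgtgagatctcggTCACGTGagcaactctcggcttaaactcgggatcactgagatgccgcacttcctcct
Capitals mark 1 match and up to 50 bases are given on each side. The Gla stretch holds another match in lower case upstream of it.

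Genes of the cell cycle fell. All 52 DNA replication genes tested fell, against 35.2% of all genes, with a median of -1.24, and 35 of them fell at least 2-fold. Cdc6, which loads the replicative helicase, stood at 44.8, 45.3 and 45.2 CPM at 6 h and 10.6, 9.33 and 10.1 CPM at 24 h (-2.17 ± 0.08, adjusted p = 2.65e-17). Mcm3, a subunit of that helicase, stood at 265.4, 264 and 267 CPM at 6 h and 89.9, 79.0 and 90.8 CPM at 24 h (-1.62 ± 0.06, adjusted p = 2.65e-17). Uhrf1, which maintains DNA methylation at replication forks, stood at 244, 244 and 248 CPM at 6 h and 69.4, 55.5 and 64.6 CPM at 24 h (-1.96 ± 0.07, adjusted p = 4.28e-17). In each of the 3 genes every 24 h library was under 40% of the lowest 6 h library. The G1 cyclin gene Ccne2 had the largest fall of the list, -3.10 ± 0.16, and the polymerase subunit gene Pold3 the smallest, -0.26 ± 0.05. The single-strand binding protein gene Rpa1 changed by -1.22 ± 0.05, the clamp gene Pcna by -1.12 ± 0.06 and the nucleotide-making Rrm2 by -1.76 ± 0.08.

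Mitotic genes had a smaller median fall. All 55 tested fell, with a median of -0.78, and 8 fell at least 2-fold. Cdk1, the mitotic kinase gene, stood at 141, 125 and 139 CPM at 6 h and 53.4, 53.5 and 55.5 CPM at 24 h (-1.32 ± 0.07, adjusted p = 1.58e-14). Aurkb, a kinase that corrects chromosome attachment, stood at 103, 101 and 99.9 CPM at 6 h and 49.4, 45.6 and 49.97 CPM at 24 h (-1.07 ± 0.05, adjusted p = 3.29e-15). Ccna2, a cyclin of S and G2 phase, changed by -1.15 ± 0.06, Top2a, which untangles chromosomes, by -0.91 ± 0.05, and the proliferation marker Mki67 by -1.003 ± 0.07. The smallest fall was that of Cdc25b, at -0.12 ± 0.05. It was the 1 mitotic call that was lost without single libraries, namely 6 h replicates 2 and 3 and 24 h replicates 1 and 2 (adjusted p = 0.0892 to 0.177).

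At 1 µg, the same lists had medians of -0.69 and -0.41. The interaction called a deeper fall at 10 µg for 42 of 52 replication genes and 43 of 55 mitotic genes. It called a shallower one for 0 of either. Of all genes, it called 11.0% more negative and 7.58% more positive. For Cdc6 the interaction was -0.99 ± 0.11 (adjusted p = 9.89e-07), and for Cdk1 -0.43 ± 0.09 (adjusted p = 0.00167).

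Genes of ribosome assembly fell with them. Of 45 ribosome biogenesis genes, 41 fell and 1 rose, with a median of -0.78. Dkc1, the pseudouridine synthase of the nucleolus, stood at 137, 130.1 and 132 CPM at 6 h and 48.0, 47.4 and 48.1 CPM at 24 h (-1.48 ± 0.05, adjusted p = 5.64e-18). The nucleolar scaffold gene Nolc1 changed by -1.28 ± 0.06, and Nop56 and Nop58, core proteins of box C/D particles, by -1.13 ± 0.05 and -1.04 ± 0.04. The 1 gene that rose was the polymerase subunit gene Polr1c, at 0.33 ± 0.07. The 76 cytosolic ribosomal protein genes as a whole gave no direction. Of these 24 fell and 6 rose with a median of -0.06, whereas under scaling by library totals 13 fell and 21 rose with a median of 0.04. Without 6 h replicate 1 only 1 rose, and 0 of the 6 calls held without each library. Rps12 had a large fall for this list, from 16.3, 13.9 and 18.0 to 8.82, 8.57 and 7.77 CPM (-0.94 ± 0.12). Ribosomal protein genes have many near-identical pseudogenes, so counts of single members are uncertain.

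**Figure D2:**
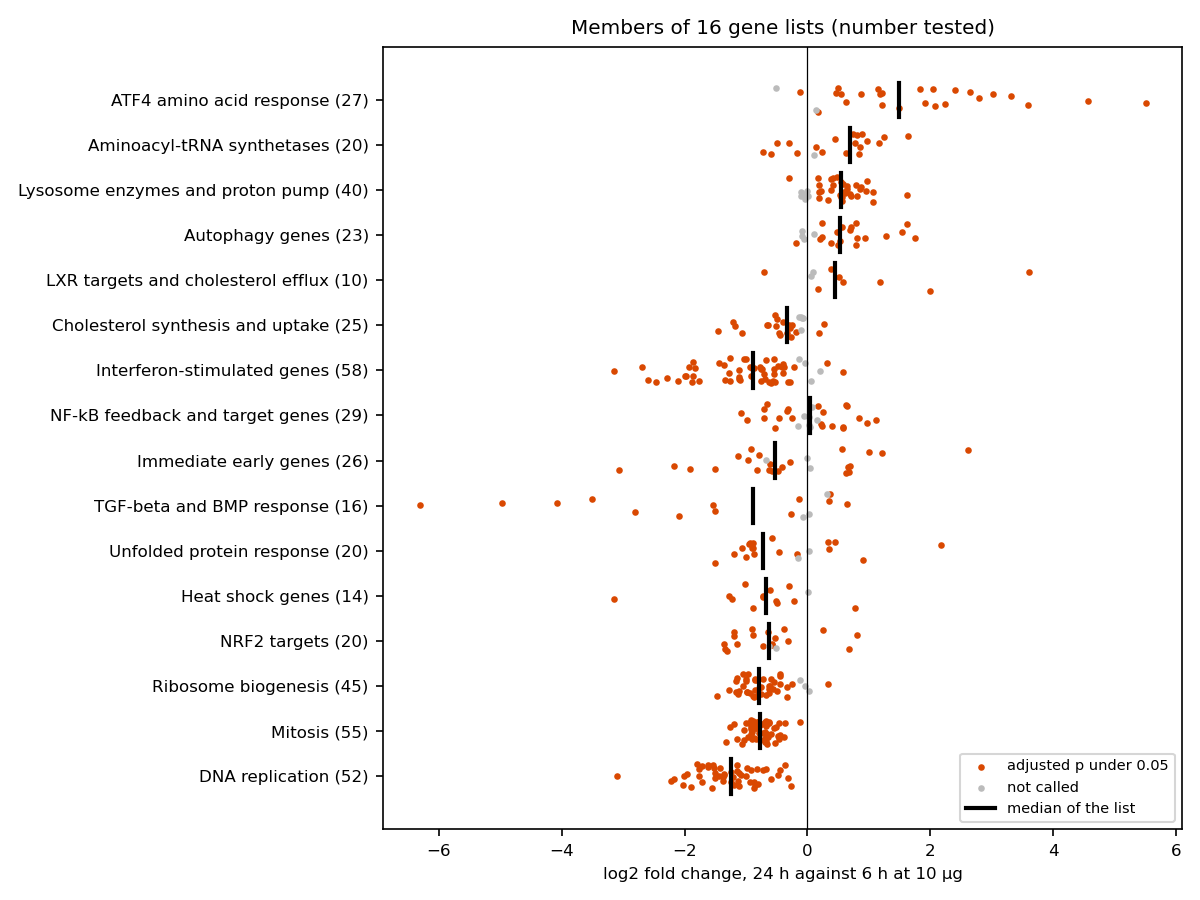
Log2 fold change of 24 h over 6 h at 10 µg for the tested members of 16 gene lists, 1 point per gene (orange, adjusted p under 0.05; grey, not called), with the list median as a black bar. Every replication and mitosis gene lies below 0, and most ATF4, lysosome and autophagy genes lie above it.

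Interferon-stimulated genes, the antiviral effectors induced downstream of interferon receptors, fell almost as a block. Of 58 tested, 52 fell and 2 rose (4 under library totals), with a median of -0.88, and 26 fell at least 2-fold. Ifit1, which binds foreign RNA, stood at 34.3, 32.2 and 30.4 CPM at 6 h and 5.94, 4.94 and 4.03 CPM at 24 h (-2.70 ± 0.11, adjusted p = 1.03e-16). Mx2, an antiviral GTPase gene, stood at 28.2, 27.8 and 27.9 CPM at 6 h and 5.51, 4.19 and 5.54 CPM at 24 h (-2.46 ± 0.11, adjusted p = 3.1e-16). Irgm1, an immunity-related GTPase gene, stood at 177, 167 and 170.5 CPM at 6 h and 61.7, 63.1 and 65.7 CPM at 24 h (-1.43 ± 0.06, adjusted p = 3.26e-16). The 3 genes shared the picture of tight 6 h libraries well above tight 24 h libraries.

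The neighbouring Ifit3 and Ifit3b changed by -2.60 ± 0.12 and -3.15 ± 0.21, and since they are near-identical copies their counts may have been split between them. The viperin gene Rsad2, the nucleotide kinase gene Cmpk2 and the ubiquitin-like modifier gene Isg15 changed by -1.88 ± 0.10, -2.29 ± 0.13 and -1.27 ± 0.09. The signal-carrying genes Irf7 and Irf9 changed by -0.71 ± 0.06 and -0.40 ± 0.06. The members that rose were Ifi203 (0.58 ± 0.07) and Oas1g (0.31 ± 0.05), and Irf1, Oas1a, Ifi27l2a and Samhd1 did not pass. At 1 µg, 45 of the list fell and 3 rose, against 30.5% and 30.3% of all genes, with a median of -0.43. The interaction called a deeper fall at 10 µg for 38 of 58, while 11.0% of all genes were more negative. For Mx2 it was -1.22 ± 0.15 (adjusted p = 3.73e-06).

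The windows of this list were searched on both strands for GAAA and GAAA separated by any 2 bases, the core of the interferon-stimulated response element. It stood in 23 of 53 windows of 44 matched genes (43.4%), in 2.98% of all windows and in 2.79% of those of tested genes. Ifit1 and Ifit3b are printed because they are among the interferon-stimulated genes that fell most, at chr19:34640754-34640863 on the plus strand and chr19:34607753-34607862 on the plus strand, build GRCm38.p6.
Ifit1: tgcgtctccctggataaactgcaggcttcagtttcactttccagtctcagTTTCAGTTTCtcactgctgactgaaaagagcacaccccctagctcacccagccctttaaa
Ifit3b: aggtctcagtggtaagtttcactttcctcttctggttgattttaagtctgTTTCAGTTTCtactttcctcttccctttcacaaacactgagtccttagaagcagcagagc
Capitals mark 1 match, here read as its reverse complement, with 50 bases on each side, and each stretch holds another match in lower case upstream of it. The same 110 bases stand upstream of Ifit3. For 6 further pairs of list and motif, the share of list windows with a match is given beside the shares of all windows and of windows of tested genes. In DNA replication TTTNNCGC had 20.8% (4.28% and 6.995%), and in mitosis TTTGAA had 44% (15.99% and 11.2%). In NF-kB targets GGGA and TTCC separated by any 2 bases had 10% (1.21% and 1.18%), and in cholesterol genes TCACNCCAC had 4.55% (1.05% and 0.988%). In NRF2 targets TGACNNNGC had 18.2% (10.2% and 11.6%), and in hypoxia targets GCGTG had 53.8% (28.2% and 44.02%).

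Classical activation genes moved in both directions. Tnf, the inflammatory cytokine gene, stood at 194, 196 and 194 CPM at 6 h and 74.5, 72.1 and 71.0 CPM at 24 h, and the times were clearly apart (-1.42 ± 0.14, adjusted p = 3.06e-06). Acod1, whose enzyme makes itaconate, stood at 43.6, 40.2 and 47.2 CPM at 6 h and 11.02, 8.88 and 10.1 CPM at 24 h (-2.13 ± 0.29, adjusted p = 5.17e-05). Cxcl10, an interferon-induced chemokine gene whose exons overlap Art3 on the other strand, stood at 17.3, 18.4 and 17.7 CPM at 6 h and 1.68, 2.02 and 1.36 CPM at 24 h (-3.40 ± 0.15, adjusted p = 8.03e-16). Ptgs2, the inducible cyclooxygenase gene, stood at 15.99, 15.2 and 14.4 CPM at 6 h and 5.32, 4.14 and 3.40 CPM at 24 h, with a wide error (-1.82 ± 0.43, adjusted p = 0.00284). Il1rn, the interleukin 1 receptor antagonist gene, changed by -1.24 ± 0.16 (adjusted p = 3.41e-05).

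Cd86, a co-stimulatory ligand for T cells, stood at 0.556, 0.766 and 0.435 CPM at 6 h and 3.55, 3.83 and 3.93 CPM at 24 h, where all libraries were low but did not overlap (2.68 ± 0.32, adjusted p = 4.12e-08). Cd40, a co-stimulatory receptor, went from 3.80, 3.22 and 2.99 to 5.89, 8.62 and 7.33 CPM (1.12 ± 0.20, adjusted p = 3.11e-05). Nos2, the inducible nitric oxide synthase, went from 7 to 41 counts over 3 libraries (2.50 ± 0.65, adjusted p = 0.00147) and stayed under 1 CPM in each. Il1b had 7 and 4 counts and Il10 9 and 0, too few to be tested. Il6, Il12b, Retnla and Chil3 had 0 counts at both times, which allows up to 3 counts per library. Of the alternative activation genes, Arg1 stood at 1.44, 2.04 and 1.40 CPM at 6 h and 0.671, 0.756 and 0.340 CPM at 24 h and fell (-1.45 ± 0.35, adjusted p = 0.000634), and the mannose receptor gene Mrc1 stood at 0.927, 0.919 and 0.386 CPM at 6 h and 2.30, 2.12 and 1.75 CPM at 24 h and rose (1.46 ± 0.30, adjusted p = 0.000103).

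By list, 4 of 10 tested M1 markers rose and 6 fell. The fourth that rose with Cd86, Cd40 and Nos2 was the co-stimulatory ligand gene Cd80 (0.90 ± 0.09), and Irf5, a transcription factor of inflammatory macrophages, fell (-0.79 ± 0.05), from 248, 238 and 235 to 142, 129.9 and 145 CPM. Of 13 M2 markers 4 rose and 6 fell, and the median of 0.04 changed sign without a count filter, with only these groups fitted and without 10 µg 24 h replicate 1. The lectin genes Clec7a and Clec10a rose (1.68 ± 0.06 and 1.20 ± 0.14), and the scavenger receptor genes Cd36 and Msr1 fell (-1.23 ± 0.07 and -0.49 ± 0.06).

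Cytokine and chemokine genes moved in both directions. Of 12 cytokine genes 6 rose and 4 fell. Ebi3, a subunit of interleukin 27 and 35, stood at 24.8, 26.4 and 28.004 CPM at 6 h and 47.8, 46.4 and 44.0 CPM at 24 h (0.80 ± 0.07), and Tnfsf9, the ligand of 4-1BB, at 45.0, 52.2 and 49.0 CPM at 6 h and 74.2, 76.3 and 73.7 CPM at 24 h (0.62 ± 0.06). The death ligand gene Tnfsf10 fell most (-3.08 ± 0.72, adjusted p = 0.000503). Of 9 chemokine genes 1 rose and 6 fell, but only 4 of these falls held without each library, and 4 genes fell under library totals. Ccl2, a monocyte attractant, fell from 94 to 8 counts (-3.48 ± 0.42), Cxcl16 changed by -0.66 ± 0.08, and Ccl6 was the 1 that rose, with 48 and 111 counts (1.22 ± 0.29).

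NF-kB feedback and target genes had no common direction over this interval. Of 29 tested, 12 rose and 10 fell, with a median of 0.04. Nfkbia, the inhibitor that NF-kB induces, stood at 149.7, 155 and 148 CPM at 6 h and 92.0, 92.0 and 94.6 CPM at 24 h and fell (-0.70 ± 0.05, adjusted p = 7.73e-12). Sod2, the mitochondrial superoxide dismutase, fell similarly (-0.70 ± 0.05). Tnfaip2 stood at 239.6, 239 and 252 CPM at 6 h and 441, 473 and 522 CPM at 24 h and rose (0.97 ± 0.06, adjusted p = 1.26e-13), as did the maturation marker Cd83 (0.83 ± 0.06). From untreated cells to 10 µg 6 h, a comparison that shares the 6 h libraries and called 4.09% of all genes higher and 1.86% lower, 18 of the 29 had risen and 0 had fallen, and 14 of the 18 calls held without each library. The interaction with dose was negative for 11 of 29 and positive for 0, against 11.0% and 7.58% of all genes.

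Immediate early genes, transcription factors induced within minutes of a signal, mostly fell. Of 26 tested 15 fell and 8 rose, with a median of -0.53. Fos stood at 147, 146 and 146 CPM at 6 h and 37.6, 39.7 and 39.8 CPM at 24 h (-1.90 ± 0.08, adjusted p = 6.19e-15) and Junb changed by -0.82 ± 0.05. The Fos relative Fosl1 and the growth regulator Myc changed by -3.06 ± 0.27 and -1.12 ± 0.29. Atf3, which is also a target of ATF4, stood at 129, 131 and 126 CPM at 6 h and 283, 299.9 and 311 CPM at 24 h and rose (1.21 ± 0.05, adjusted p = 4.37e-16). The Krüppel-like factor genes Klf4, Klf2 and Klf6 rose as well (2.61 ± 0.14, 1.01 ± 0.13 and 0.62 ± 0.05), as did Jun (0.70 ± 0.06).

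Early genes that reversed were counted from the comparison of 10 µg 6 h with untreated cells. It called 738 genes (5.95%), 507 higher and 231 lower. The untreated libraries enter here only as the starting level, and both comparisons use the 10 µg 6 h libraries, so a chance excursion of those libraries counts in both. Of the 507 early risers, 222 fell from 6 h to 24 h (43.8%), 192 rose further (37.9%) and 93 did not pass. The comparison of 10 µg 24 h with untreated cells, which shares libraries with both, called 8717 genes (70.3%), 4388 higher (35.4%) and 4329 lower (34.9%). By it, 144 of the 222 were below untreated cells at 24 h, 65 did not differ by the test and 13 were still above. Of the 231 early fallers, 84 rose from 6 h to 24 h (36.4%), 110 fell further (47.6%) and 37 did not pass. Over the same interval 34.0% of all tested genes rose and 35.2% fell. The 36.4% and the 37.9% that rose lie near the share of all genes. Of the 84, 48 ended above untreated cells, 33 did not differ by the test and 3 were still below. Both calls held without each library for 100 of the 222 and 19 of the 84. The count of early genes is the less stable part: it was 390 to 469 without any one of its 6 libraries and 1487 when only the untreated and 10 µg 6 h libraries were fitted.

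Of the early risers that then fell, 10 were named for the size of the change. Pmepa1 went from 54.6 ± 3.25 CPM in untreated cells to 113 ± 6.13 CPM at 6 h and 1.42 ± 0.140 CPM at 24 h. Its early change was 1.05 ± 0.10 and its later one -6.31 ± 0.16. Rgs16 went from 6.98 ± 1.22 CPM to 15.4 ± 0.791 CPM and 1.43 ± 0.380 CPM, with changes of 1.14 ± 0.16 and -3.42 ± 0.20. Acod1 differed from these in where it ended. It went from 11.6 ± 1.21 CPM to 43.7 ± 3.50 CPM and back to 9.98 ± 1.07 CPM, and the test called no difference between 24 h and untreated cells (-0.22 ± 0.32, adjusted p = 0.562).

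Nfatc1, the master regulator of osteoclast formation, went from 243 ± 11.9 CPM to 363 ± 9.88 CPM and 89.1 ± 7.60 CPM (0.58 ± 0.06, then -2.02 ± 0.06). The actin-binding protein gene Marcksl1 went from 119 ± 13.1 CPM to 209.6 ± 6.09 CPM and 50.7 ± 2.28 CPM (0.82 ± 0.09, then -2.05 ± 0.09). Both ended below untreated cells (-1.44 ± 0.06 and -1.23 ± 0.09). Itgav, the integrin alpha V gene, and Tnfrsf12a, the TWEAK receptor gene, changed early by 0.30 ± 0.05 and 0.40 ± 0.08 and later by -1.84 ± 0.06 and -1.71 ± 0.09. Ifit1, Mx2 and Rsad2 changed early by 0.42 ± 0.09, 0.73 ± 0.09 and 0.44 ± 0.09 before the falls given above.

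Of the early fallers that then rose, 10 were named for the size of the change. Clec7a, the beta-glucan receptor dectin-1, went from 39.4 ± 2.18 CPM to 28.9 ± 0.523 CPM and then 92.9 ± 6.86 CPM (-0.45 ± 0.06, then 1.68 ± 0.06). Sla, an adaptor that dampens receptor signalling, went from 8.53 ± 0.417 CPM to 5.85 ± 0.135 CPM and 19.7 ± 0.425 CPM (-0.54 ± 0.10, then 1.75 ± 0.09). Pmaip1, the pro-apoptotic gene also called Noxa, went from 27.1 ± 1.33 CPM to 20.7 ± 1.04 CPM and 49.3 ± 6.16 CPM (-0.39 ± 0.09, then 1.25 ± 0.08). These 3 ended above untreated cells.

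Sirpa, the receptor for the "do not eat me" signal CD47, was abundant and moved less, from 1202 ± 32.3 CPM to 1008 ± 21.2 CPM and 1680.2 ± 77.9 CPM (-0.25 ± 0.05, then 0.74 ± 0.05). Niban1, which is induced by stress, and the phosphatase gene Ctdsp2 changed by -0.39 ± 0.06 and -0.32 ± 0.06 and then by 1.42 ± 0.06 and 1.01 ± 0.06. Lrrc25 changed by -0.42 ± 0.07 and then 1.19 ± 0.07. The remaining 3 of the 10 stopped near the starting level. For Zfp608, Clec4a3 and Add3 the test called no difference between 24 h and untreated cells (0.22 ± 0.11, 0.06 ± 0.10 and 0.15 ± 0.08), with adjusted p = 0.0776, 0.647 and 0.104.

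**Figure D3:**
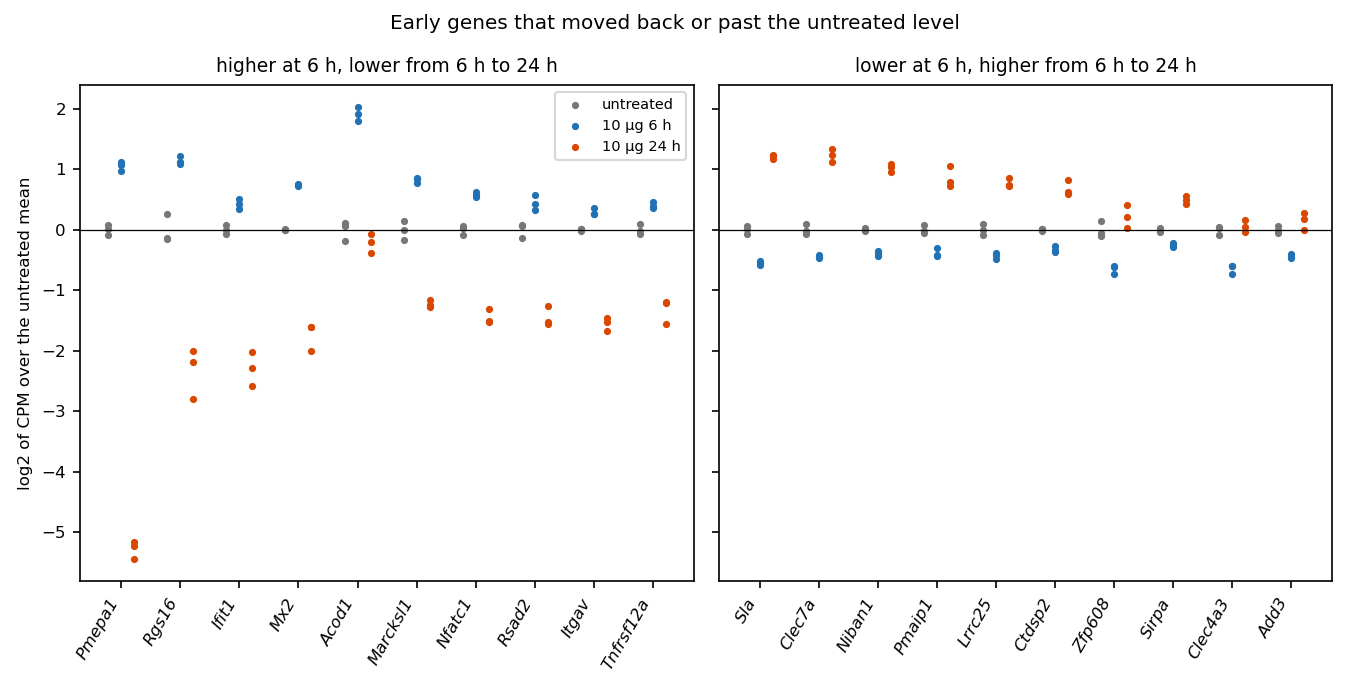
Log2 of CPM over the mean of untreated cells for 10 genes that were higher at 10 µg 6 h and then fell (left) and 10 that were lower and then rose (right), 1 point per library. Blue 6 h points lie above the line at left and below it at right, and orange 24 h points lie on the other side, except that Zfp608, Clec4a3 and Add3 return near the line and Acod1 to just under it.

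Lipid genes showed opposite movements of cholesterol efflux and cholesterol synthesis. LXR senses oxysterols and turns on genes for cholesterol export, and SREBP2 turns on the synthesis pathway when sterols are low. Abca1, a cholesterol exporter, stood at 6.44, 6.48 and 6.33 CPM at 6 h and 73.0, 83.6 and 79.1 CPM at 24 h, a 12.2-fold rise with no overlap (3.61 ± 0.10, adjusted p = 1.58e-19). Abcg1, which exports cholesterol to high-density lipoprotein, stood at 60.1, 63.1 and 62.6 CPM at 6 h and 234, 253 and 251 CPM at 24 h (1.99 ± 0.06, adjusted p = 5.33e-19). Pltp, a phospholipid transfer protein gene, changed by 1.18 ± 0.08 and Lpcat3, which remodels phospholipids, by 0.58 ± 0.05. In all, 7 of 10 LXR targets rose and 1 fell, the apolipoprotein gene Apoe (-0.71 ± 0.14). The receptor gene Nr1h3 did not pass (0.09 ± 0.08) and Nr1h2 rose (0.38 ± 0.06).

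Of 25 cholesterol synthesis and uptake genes 18 fell and 2 rose, with a median of -0.33. Hsd17b7, a sterol ketoreductase gene, stood at 135, 126 and 133 CPM at 6 h and 48.7, 49.0 and 45.5 CPM at 24 h (-1.46 ± 0.06, adjusted p = 4.28e-17) and Idi1, an early isoprenoid enzyme, at 242, 229.8 and 237 CPM at 6 h and 98.5, 104 and 103 CPM at 24 h (-1.21 ± 0.06, adjusted p = 8.42e-15). Stard4, a sterol carrier, changed by -0.66 ± 0.05. From untreated cells to 10 µg 6 h, 11 of the 25 had risen and 0 had fallen, against 4.09% and 1.86% of all genes, and 4 of the 11 calls held without each library. Fatty acid genes split. Of 20, 8 rose and 10 fell: the desaturase gene Scd1 went from 165, 156 and 164 to 408, 387 and 392 CPM (1.29 ± 0.07) and the lipid droplet coat gene Plin2 rose (1.01 ± 0.05), while the synthase gene Fasn (-1.04 ± 0.07) and the elongase gene Elovl6 (-1.15 ± 0.08) fell. The sign of this list's median, -0.02, turned under library totals, without a filter and without 6 h replicate 3 or 24 h replicate 1.

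Chaperones and antioxidant genes fell. Of 14 heat shock genes 12 fell and 1 rose, with a median of -0.67. Hspa8, the constitutive HSP70, stood at 1285, 1301 and 1299 CPM at 6 h and 545, 561 and 558 CPM at 24 h (-1.22 ± 0.05, adjusted p = 6.09e-17). Hsph1, Hsp90aa1 and Bag3 changed by -1.28 ± 0.06, -1.02 ± 0.05 and -0.89 ± 0.06, and the 1 that rose was Hspa4l (0.77 ± 0.07). Of 20 unfolded protein response genes 13 fell and 5 rose. The calcium-binding chaperone gene Calr stood at 1506, 1472 and 1468 CPM at 6 h and 516, 505 and 541 CPM at 24 h (-1.51 ± 0.08, adjusted p = 9.34e-13), and Creld2 and Dnajb11 changed by -1.20 ± 0.09 and -0.88 ± 0.06. The sensor gene Ern1, which encodes IRE1-alpha, moved the other way, at 42.3, 47.4 and 39.7 CPM at 6 h and 179.8, 206 and 201 CPM at 24 h (2.18 ± 0.09, adjusted p = 1.92e-12). Of 20 NRF2 targets 15 fell and 3 rose. Gclc and Gclm, which make glutathione, changed by -1.30 ± 0.08 and -0.88 ± 0.05, the glutathione reductase gene Gsr by -1.19 ± 0.07 and the pentose phosphate enzyme gene Taldo1 by -0.91 ± 0.05.

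The lists of energy metabolism had small medians, at -0.22 for the TCA cycle, -0.19 for nuclear oxidative phosphorylation and -0.14 for glycolysis, while single members moved more. Of 21 TCA cycle genes 12 fell and 3 rose (5 under library totals), and the falls included Idh3a (-1.07 ± 0.06), Sdhd (-0.59 ± 0.05), Mdh2 (-0.53 ± 0.05) and Idh2 (-0.53 ± 0.05). Of 60 nuclear oxidative phosphorylation genes 31 fell and 5 rose, with a median of -0.19, and under library totals 19 fell and 7 rose. Of that list's calls, 22 of the 31 falls and 3 of the 5 rises held without each library. That list held 69 symbols, of which 60 were in the count table. The absent ones were ATP synthase symbols such as Atp5f1a, Atp5f1b and Atp5po. Cycs, Cox7a2 and Cyc1 fell (-0.84, -0.63 and -0.45) and Uqcrq rose (0.80). Of 21 glycolysis genes 7 rose and 11 fell. The hexokinase gene Hk3 stood at 248, 255 and 253 CPM at 6 h and 638, 645 and 701 CPM at 24 h and rose (1.39 ± 0.05, adjusted p = 2.75e-17), Eno2 and Aldoc rose (1.22 ± 0.07 and 0.80 ± 0.05), and the lactate dehydrogenase gene Ldha fell (-0.86 ± 0.05). Of 21 hypoxia targets 13 rose and 6 fell, with a median of 0.41. Vegfa, the vascular growth factor gene, stood at 19.2, 24.2 and 21.1 CPM at 6 h and 83.6, 91.9 and 88.5 CPM at 24 h (2.03 ± 0.07, adjusted p = 1.02e-17), Bnip3l and Ero1a changed by 1.06 ± 0.06 and 0.77 ± 0.06, and Hif1a fell slightly (-0.18 ± 0.05).

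Genes of receptors and ligands moved in both directions, as did all tested genes, of which 34.0% rose and 35.2% fell. Among 14 ligands of co-stimulation and checkpoints, 10 rose and 3 fell, with a median of 0.73. Cd274, the checkpoint ligand PD-L1, stood at 13.8, 14.3 and 16.3 CPM at 6 h and 42.4, 52.1 and 51.3 CPM at 24 h (1.71 ± 0.13, adjusted p = 8.26e-10), and Pdcd1lg2, PD-L2, changed by 2.61 ± 0.56. Havcr2, the receptor TIM-3, fell (-1.11 ± 0.07). Of 19 phagocytic, Fc and scavenger receptors 10 rose and 8 fell, but 4 fell without 6 h replicate 3 or under library totals, and 5 without 24 h replicate 2. The Fc receptor genes Fcgr3 and Fcgr2b went from 47.6, 48.1 and 48.5 to 97.8, 115 and 117 CPM and from 80.7, 83.1 and 79.4 to 163, 165 and 169 CPM (1.19 ± 0.07 and 1.03 ± 0.05), and Fcgr1 and Fcgr4 changed by 1.61 ± 0.11 and 1.92 ± 0.15. Of 25 Toll-like receptor and adaptor genes 13 rose and 8 fell. Cd14, the co-receptor for lipopolysaccharide, stood at 2209, 2191 and 2170.1 CPM at 6 h and 1087, 1053 and 1138 CPM at 24 h (-1.003 ± 0.06, adjusted p = 3.75e-13). Tlr2 stood at 535, 516 and 519.9 CPM at 6 h and 199, 199 and 205 CPM at 24 h (-1.38 ± 0.09, adjusted p = 1.39e-09), and the DNA sensor gene Cgas changed by -1.46 ± 0.07. The peptidoglycan sensor genes Nod2 and Nod1 rose (1.10 ± 0.11 and 1.80 ± 0.35).

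Of 7 MHC class II pathway genes 3 rose and 0 fell: Cd74, the invariant chain, stood at 70.9, 77.4 and 78.3 CPM at 6 h and 160.4, 177 and 166 CPM at 24 h (1.15 ± 0.07, adjusted p = 1.46e-12), the protease gene Ctss changed by 0.37 ± 0.05, and H2-Oa went from 8 to 35 counts with overlapping libraries. Of 22 class I genes 10 rose and 6 fell. H2-T23 and H2-D1 rose (0.91 ± 0.07 and 0.48 ± 0.05), and the peptide-loading chaperone gene Pdia3 fell with Calr (-0.88 ± 0.06). Class I genes are near-identical copies, so their single values are uncertain.

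Osteoclast, matrix and iron genes included some of the sharper single changes. Of 15 osteoclast genes 8 fell and 4 rose. Ocstamp, a cell fusion gene, stood at 4.63, 4.95 and 4.92 CPM at 6 h and 0.623, 0.252 and 0.194 CPM at 24 h (-3.73 ± 0.27, adjusted p = 4.09e-12), and Tnfrsf11a, the RANK receptor gene, at 129.6, 128 and 138 CPM at 6 h and 63.7, 57.6 and 55.2 CPM at 24 h (-1.16 ± 0.07). Of 15 matrix protease and inhibitor genes 7 rose and 5 fell. Plau, the urokinase gene, stood at 784, 783 and 782 CPM at 6 h and 309, 246 and 266 CPM at 24 h (-1.52 ± 0.09, adjusted p = 1.19e-10) and Adam8 changed by -1.20 ± 0.07, while Mmp12 and Timp2 rose (1.24 ± 0.11 and 1.01 ± 0.07). Of 15 iron and metal genes 6 rose and 7 fell. Tfrc, the transferrin receptor gene, stood at 826, 743 and 751 CPM at 6 h and 210.4, 205 and 204 CPM at 24 h (-1.91 ± 0.07, adjusted p = 6.85e-15), the ferritin light chain gene Ftl1 fell (-0.57 ± 0.07), and the iron exporter and importer genes Slc40a1 and Slc11a2 rose (1.18 ± 0.29 and 0.51 ± 0.05).

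Of 27 p53 targets 16 rose and 5 fell, and Sesn2 is counted here as well as in the ATF4 list. Bbc3, the death effector PUMA, stood at 15.1, 20.5 and 17.6 CPM at 6 h and 91.1, 110.4 and 112 CPM at 24 h (2.56 ± 0.11, adjusted p = 8.23e-13), and Ccng2, a cyclin that slows the cycle, at 14.0, 12.9 and 14.5 CPM at 6 h and 36.8, 40.2 and 37.2 CPM at 24 h (1.46 ± 0.07). Of the p53 targets best known as readouts, Mdm2 fell (-0.60 ± 0.13) and Cdkn1a stood at 0.13 ± 0.06, a call that was lost without any one library except 24 h replicate 1 (adjusted p = 0.0724 to 0.232). Of 15 BCL2 family genes 8 rose and 4 fell. The survival gene Bcl2 stood at 35.5, 33.2 and 34.6 CPM at 6 h and 87.9, 92.6 and 91.3 CPM at 24 h (1.40 ± 0.07, adjusted p = 4.97e-14), and Bcl2a1b, which has near-identical copies, changed by 1.12 ± 0.10. Of 13 inflammasome genes 10 rose and 1 fell. The 1 that fell was the sensor gene Nlrp3, at 158, 162 and 158 CPM at 6 h and 75.6, 68.1 and 64.6 CPM at 24 h (-1.20 ± 0.06, adjusted p = 3.31e-14), and Casp4, Naip5 and Nlrp1b rose (1.31 ± 0.09, 1.06 ± 0.08 and 0.77 ± 0.07).

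Smaller lists were mixed. Of 11 complement genes 6 rose and 2 fell, C3 from 8.43, 7.35 and 5.99 to 22.1, 22.4 and 25.9 CPM (1.69 ± 0.12), with C1ra and C3ar1 at 0.64 ± 0.10 and 0.33 ± 0.05. Of 12 eicosanoid genes 4 rose and 7 fell, but 4 fell without 6 h replicate 3 or under library totals. The prostaglandin E synthase gene Ptges3 fell (-1.003 ± 0.05), as did Ptgs1 (-1.38 ± 0.32), and the prostaglandin D synthase gene Hpgds and the leukotriene enzyme gene Lta4h rose (0.68 ± 0.06 and 0.24 ± 0.06). Of 18 MAP kinase feedback genes 9 rose and 7 fell: the phosphatase gene Dusp2 fell (-2.18 ± 0.23) and Spred3 and Rgs2 rose (1.22 ± 0.13 and 0.46 ± 0.05).

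The time course at the lower dose used other libraries, so both can be set side by side. Over all genes, the 1 µg comparison called 7533, and under library totals 4908 were higher and 2794 lower. Of the 4218 genes that rose at 10 µg, 3172 also rose at 1 µg, 75.2% of the first list and 84.5% of the second. Of the 4361 that fell, 3336 also fell, 76.5% and 88.3%. Called in opposite directions were 42 and 36 genes. Across the 12401 genes, which are not independent replicates, the log2 fold changes at both doses had a Pearson r of 0.851 and a slope of 10 µg on 1 µg of 1.05.

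The difference between the doses was tested as an interaction of dose and time. It passed for 2307 genes (18.6%), with 940 changes more positive at 10 µg (7.58%) and 1367 more negative (11.0%). Of the genes that rose at 10 µg, 835 rose further than at 1 µg and 45 less, and of those that fell, 1231 fell further and 25 less. The interaction is relative to scaling within each library, as are the changes themselves.

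The single genes with the largest interaction included several with few counts. Tspan10 stood at 2.36 ± 0.434 CPM at 1 µg 24 h and 13.3 ± 3.69 CPM at 10 µg 24 h, and its interaction was 2.59 ± 0.44 (adjusted p = 0.000196). Dio2, which activates thyroid hormone, stood at 1.30 ± 0.678 CPM and 10.6 ± 1.59 CPM (2.12 ± 0.45, adjusted p = 0.00174). Sdk2, an adhesion gene, and Creg2, a secreted glycoprotein gene, had interactions of 1.66 ± 0.29 and 1.66 ± 0.43 (adjusted p = 0.000208 and 0.00776). In the other direction, Ocstamp stood at 2.33 ± 0.296 CPM and 0.356 ± 0.233 CPM at 24 h (-2.55 ± 0.35, adjusted p = 1.57e-05). Hspa1b, the inducible HSP70, stood at 4.55 ± 2.28 CPM and 1.41 ± 0.141 CPM (-2.10 ± 0.35, adjusted p = 0.00051). Acod1 did not pass over time at 1 µg (-0.08 ± 0.29, adjusted p = 0.822), where its 24 h libraries were spread at 23.4, 11.7 and 8.37 CPM (-2.04 ± 0.41 for the interaction, adjusted p = 0.00598).

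**Figure D4:**
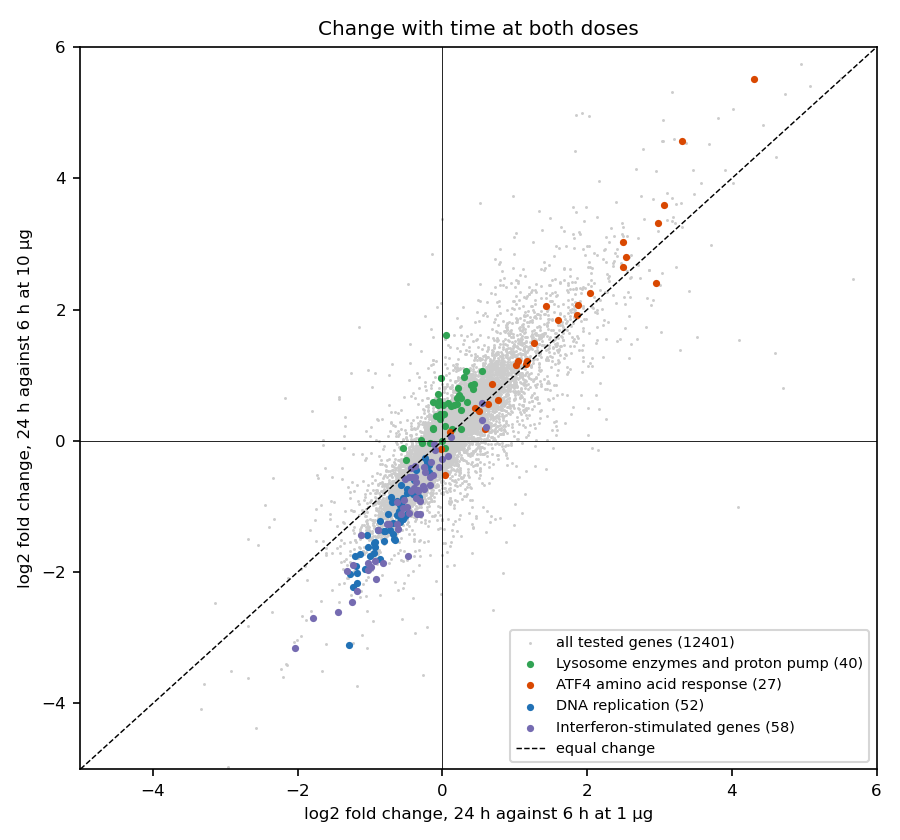
Log2 fold change of 24 h over 6 h at 10 µg (vertical) against 1 µg (horizontal), 1 point per tested gene, with 4 lists in colour and the dashed line of equal change. Lysosome genes lie above the line near 0 on the horizontal axis, replication and interferon-stimulated genes below it, and 30 genes fall outside the axes.

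**Figure D5:**
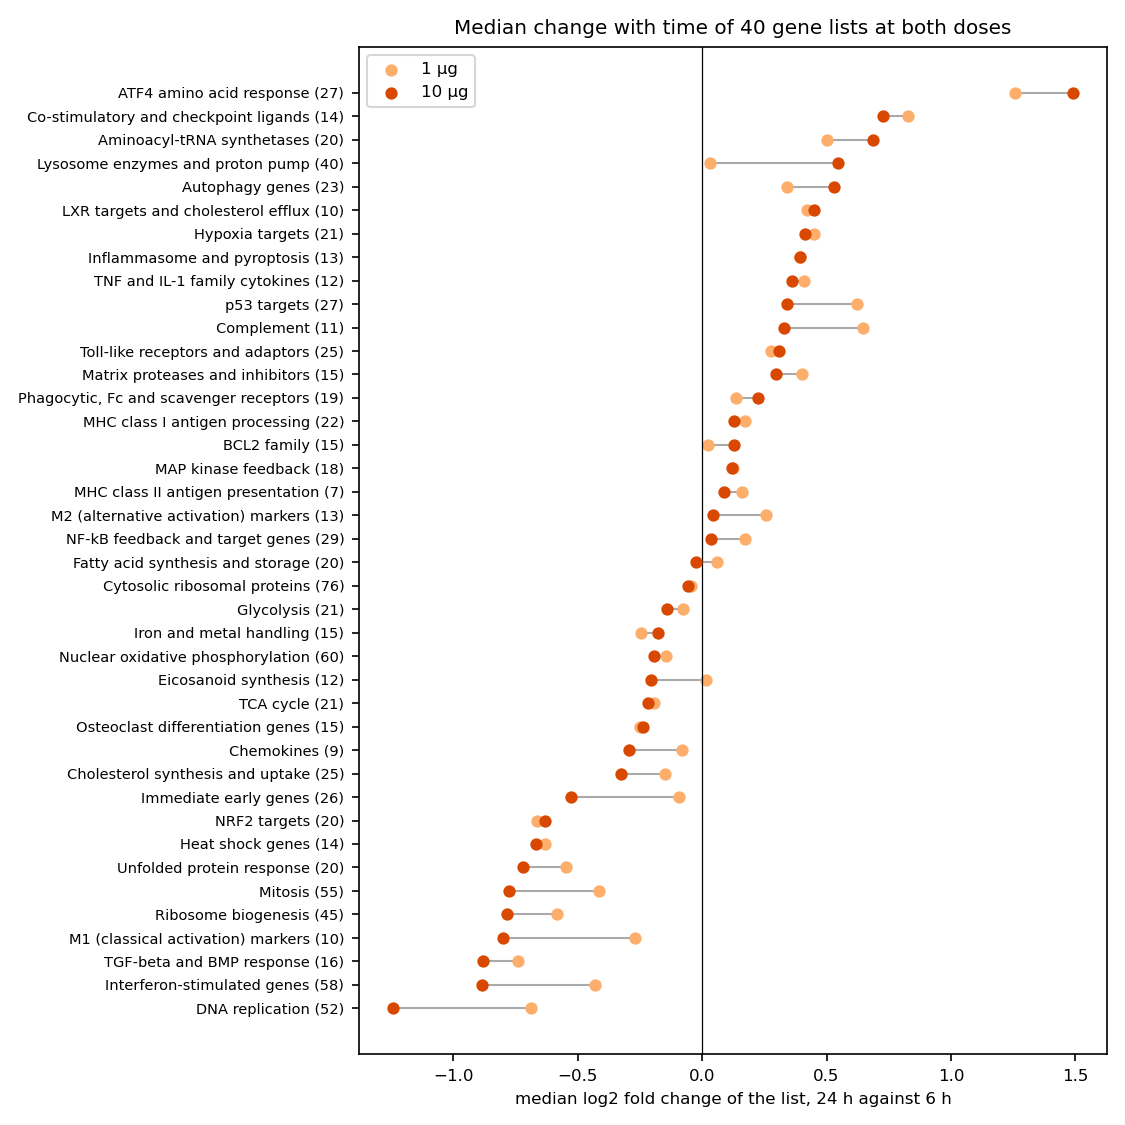
Median log2 fold change of 24 h over 6 h of each of 40 lists at 1 µg (light) and 10 µg (dark), with the number of tested members in brackets. The widest gaps are at DNA replication, M1 markers, lysosome and interferon-stimulated genes, and the ATF4 list has the highest median at both doses.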

How the data were processed

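RNA from RAW264.7 cells was made into stranded mRNA libraries, and the authors deposited 1 table of raw read counts per gene symbol for 15 libraries, with GRCm39 as the build named per the submitters' processing notes. The aligner, counter, annotation and strand setting were not given in the sources used. Columns were matched to samples by name. edgeR 4.0.16 (R 4.3.3) was fitted to all 15 libraries and 5 groups, after filterByExpr kept 12401 genes holding 99.97% of counts, with TMM scaling, robust quasi-likelihood dispersion (10 residual degrees of freedom, biological coefficient of variation 5.68%) and Benjamini-Hochberg adjustment over all 12401 genes, at 0.05. Fold changes used a prior count of 0.125. Of 25639 symbols, 8141 were at 0 throughout. SEs were the size of the log2 fold change over the square root of F. Within-group chi-square checks found replicates to differ beyond sampling noise.

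Named genes were the 12 largest rises and falls with a group mean of at least 5 CPM and no overlap, 16 activation genes, up to 4 per list of 40 lists, up to 10 early genes per direction that reversed, and up to 5 interactions per direction. Except for the activation genes, each had to be called without each single library in the comparisons that named it. Symbols of predicted genes, clones and pseudogenes were left out of the ranked rises, falls, early genes and interactions. Symbols that look like duplicates by suffix (44) were not named. Some genes that these rules name are not reported here. Other list members are given by role, chosen after their values were seen. The lists and rules were chosen with earlier results of these data known. The lists overlap, with 49 genes in more than 1 list, so their counts are not independent. Alternatives were DESeq2 1.42.0, limma-voom 3.58.1, RLE factors, library totals, no count filter, a replicate block, only the groups compared, and each library left out. Exon overlaps came from GENCODE M21 (GRCm38), by symbol, and 23 of 195 named genes share exons with another tested gene, as for Cxcl16, Dkc1, Hk3, Irf5, Junb, Nop56, Pdia3, Pltp and Lpcat3. Promoter windows came from RefSeq on GRCm38.p6. Intervals and the floor of 3 counts cover counting error only.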

Additional observations from a re-analysis of the deposited data

Results flagged for a closer look

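The change from 6 h to 24 h differed between 10 µg and 1 µg, by the interaction of dose and time in edgeR, for 2307 genes at an adjusted p under 0.05. Among those named by size, the log2 change was more positive at 10 µg for Tspan10 (by 2.59), Dio2 (by 2.12), Gbp8 (by 1.67), Creg2 (by 1.66) and Sdk2 (by 1.66). It was more negative for Itsn1 (-4.69), Ocstamp (-2.55), Hspa1b (-2.10) and Acod1 (-2.04). Itsn1 stood at 18.6, 17.5 and 18.8 CPM at 1 µg 6 h, 10.0, 7.34 and 7.78 CPM at 1 µg 24 h, 4.73, 11.3 and 15.3 CPM at 10 µg 6 h and 0.0958, 0.454 and 0 CPM at 10 µg 24 h, with wide relative scatter at 10 µg. Gbp8 shares exons with Gbp9, which was listed at 0 in every library taken at 24 h, and the part of read assignment in its value was not tested.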

How the results depend on the processing

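The count of genes called between 24 h and 6 h at 10 µg was 8323 to 8676 under the other settings. It was 8090 to 8340 without single libraries. Every gene named by the rules kept its direction and its call in each fit that gave it a value. For most of them the rules required the call without each single library, so only the other settings could have changed it. Some list members given by role lost their call, as stated with them. The split by direction depended on scaling, with 5132 higher and 3544 lower under library totals. The interaction count was 1764 to 2723 without single libraries, the extremes being without 10 µg 24 h replicate 2 and without 1 µg 24 h replicate 3. The comparison of 10 µg 6 h with untreated cells was the least stable: 1487 genes were called (876 higher, 611 lower) with only those groups fitted, and without any one of its 6 libraries 390 to 469 in all, 289 to 340 higher and 101 to 130 lower. The cause was not tested. Its share of higher calls was 68.7%, and 60.3% under library totals, 61.8% under RLE factors, 60.8% by DESeq2 and 58.9% with only those groups fitted. Replicate numbers are not labelled as shared origins, and same-numbered libraries at 6 h and 24 h correlated at -0.04, 0.03 and 0.05 in their deviations, so they were not treated as pairs. With a replicate block, 8509 genes were called at 10 µg, 7472 at 1 µg, 2252 by the interaction, 708 at 6 h and 8630 at 24 h against untreated cells. List medians turned sign for ribosomal proteins, cytokines, phagocytic receptors, M2 markers and fatty acid genes under single settings. Genes at or near 3 counts per library limit the sizes of the largest rises.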
